A study of Caenorhabditis elegans with 6 samples.

Results

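The miR-51 family of *Caenorhabditis elegans* comprises cel-miR-51-5p, cel-miR-52-5p, cel-miR-53-5p, cel-miR-54-3p, cel-miR-55-3p and cel-miR-56-3p, written below without the prefix. These 6 mature microRNAs (miRNAs) were taken by name from the 437 names in each deposited count file, by a rule that uses names and no measured value. The members and the rule were, however, chosen with earlier results of these data known. The libraries were small-RNA libraries from whole N2 worms, the wild-type laboratory strain, with 3 control libraries of untreated worms and 3 cadmium libraries. Cadmium chloride exposure began in L4 larvae (the last larval stage) at 60 µmol/L in nematode growth medium at 20 °C, with the bacterial strain OP50 as food. The exposure time is not given in the sources used here, and nothing in the labels says whether replicates came from separate cultures, so p-values measure the spread between these libraries, which may be technical. In RNA from whole worms, a change in the number of cells of a type and a change in RNA per cell cannot be told apart.

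A miRNA guides an Argonaute protein to messenger RNAs that pair with its seed, the stretch near its 5′ end. The miR-51 family shares its seed with miR-100 of flies and vertebrates. In worms the members act redundantly: single deletions have mild or no visible effects, while loss of the whole family is lethal to embryos, with a pharynx that does not stay attached. One established target in this process is cdh-4, which encodes a Fat-like cadherin. In flies miR-100 is made from the same transcript as let-7 and miR-125, whose worm relatives are the let-7 family and lin-4 with miR-237.

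The hairpins lie at 3 places in the WBcel235 genome. All 6 positions were the same in Ensembl release 115 and RefSeq. The mir-51 hairpin is at chromosome IV, 11026013 to 11026112, and mir-53 at 11027593 to 11027691, both on the minus strand and 1480 bases apart. Both are intergenic, between the protein-coding genes alh-3 and hrg-5. The mir-52 hairpin lies 3006316 bases beyond mir-53, at 14034008 to 14034107 on the plus strand, also intergenic. The other 3 hairpins sit within 404 bases on the minus strand of chromosome X, inside an intron of F09A5.3, which runs on the plus strand. These are mir-56 (13144691 to 13144787), mir-55 (13144827 to 13144924) and mir-54 (13144996 to 13145094), with gaps of 39 and 71 bases. The chromosome IV hairpins give the family's sequence from their 5p arm, and the chromosome X hairpins give it from their 3p arm.

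Library totals ran from 1640693 to 3917414 counts. Levels below are CPM, counts scaled to a common library size with factors from the trimmed mean of M-values (TMM). Where 3 values are given for a group, they are those of replicates 1 to 3 in order, and a ± is an SD over them. They are not divided by length, since a small-RNA read covers the whole mature miRNA, and the members are annotated at 22 to 24 bases. Markers of muscle (miR-1-3p), neurons (miR-124-3p and lsy-6-3p), intestine (miR-60-3p), and late larva and adult (let-7-5p) were detected, as were all 8 of the embryo and germline miR-35 family. The miR-35 family took 7.25% to 11.7% of counts in control and 1.80% to 2.63% in cadmium libraries. As a share of counts the intestine marker miR-60-3p also lay lower, at 0.173% to 0.236% in control and 0.129% to 0.170% in cadmium libraries. The muscle, neuron and let-7-5p shares overlapped. With TMM scaling the miR-60-3p groups overlapped too, at 1906 ± 355 CPM in control and 1648 ± 175 CPM in cadmium libraries (SD, n = 3). It was not called in the edgeR test described below (adjusted p 0.478). The part of the miR-60-3p difference in the values below was not tested, and values without the miR-35 family are given where they bear on a result.

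The family was abundant in both groups. Its 6 members together took 11.5%, 11.1% and 9.27% of all counts in the controls, and 8.51%, 10.2% and 10.3% in the cadmium libraries. The group values were 10.6 ± 1.18% and 9.69 ± 1.02% (SD, n = 3), and the groups overlapped. With the miR-35 family left out of the totals, the difference between group means moved from −0.92 to −1.80 percentage points. The 95% Wilson interval of the share with the lowest total ran from 11.46% to 11.55%, so counting error was small beside the spread between libraries. Intervals cover counting error only.

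Within the family, miR-52-5p was the main member. It supplied 44.7%, 58.1% and 51.7% of the family's counts in the controls, and 50.2%, 63.6% and 65.0% in the cadmium libraries. Among all tested miRNAs it ranked 5 by mean level. It was between 2.35 and 6.91 times as abundant as miR-55-3p, the next member. Below miR-52-5p, miR-51-5p did not separate from miR-55-3p or miR-56-3p. miR-55-3p exceeded miR-51-5p in 3 of 6 libraries, and miR-51-5p exceeded miR-56-3p in 4 of 6. miR-55-3p lay above miR-56-3p in every library, by a ratio of 1.26 to 1.49. miR-54-3p lay below miR-56-3p in 6 of 6 libraries, by a ratio as small as 1.01 in one of them. miR-53-5p was lowest in 6 of 6 libraries and ranked 39 among tested miRNAs. Levels of different miRNAs also carry the differing efficiency with which each is ligated and amplified, so this order describes reads.

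**Figure D1:**
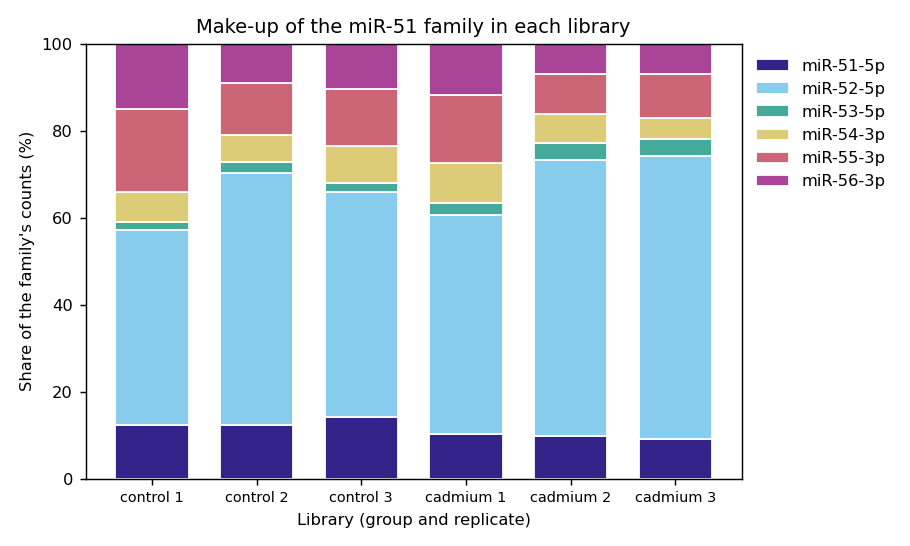
Stacked bars give each member's share (%) of the family's counts in the 3 control and 3 cadmium libraries. miR-52-5p fills 44.7% to 65.0% of every bar, and the miR-51-5p band is narrower in the 3 cadmium libraries (9.24% to 10.4%) than in the 3 controls (12.4% to 14.3%).

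Under cadmium the members had fitted changes in both directions. Of the 6, all of which passed the filter on low counts, 1 passed the threshold, miR-53-5p, which rose. Calls were made at 0.05 on p-values from the quasi-likelihood test of edgeR, adjusted by Benjamini and Hochberg's method over 208 miRNAs. Of all tested miRNAs 21.6% were called, and 9.62% were called as higher. At 1 of 6 the family stood near that background. Fitted values were above 0 for 2 members and below 0 for 4, with a median log2 fold change of −0.16 against 0.0039 over all tested miRNAs. With scaling to library totals the median of all tested miRNAs was −0.16, and the fitted values of the members moved by −0.18 (miR-54-3p) to −0.22 (miR-53-5p).

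miR-53-5p, the least abundant member, had 1966, 2539 and 1991 CPM in the controls and 2351, 4313 and 4626 CPM in the cadmium libraries. Cadmium replicates 2 and 3 lay above every control library, while cadmium replicate 1 lay below control replicate 2. The means were 2165 ± 324 and 3763 ± 1233 CPM (SD, n = 3), and the fitted log2 fold change was 0.80 (SE 0.25, adjusted p 0.0437 in edgeR). The direction was the same in all 16 alternatives, but 11 of them missed the threshold. Adjusted p was 0.101 with total-count scaling and 0.0564 with upper-quartile scaling, and it was 0.0569 without the miR-35 family. Left out singly, any library but cadmium replicate 1 ended the call (0.0595 to 0.184), and without cadmium replicate 1 the adjusted p was 0.0019. With the replicate number as a block, it was 0.0975.

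miR-52-5p, which shares nearly all of its sequence with miR-53-5p, had 45095, 60193 and 47657 CPM in the controls and 40678, 72661 and 77349 CPM in the cadmium libraries. Cadmium replicate 1 was the lowest of all 6 libraries and cadmium replicate 3 the highest, so the groups overlapped. The fitted log2 fold change was 0.32 (SE 0.24, adjusted p 0.4 in edgeR). Without cadmium replicate 1 it was 0.59 and passed the threshold (adjusted p 0.0468 in edgeR). With total-count scaling it was 0.096.

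miR-51-5p, the near neighbour of miR-53-5p on chromosome IV, had 12543, 12822 and 13134 CPM in the controls and 8411, 11218 and 10997 CPM in the cadmium libraries. All 3 cadmium libraries lay below all 3 controls, and it was the 1 member of 6 whose groups did not overlap on this scale. Among all tested miRNAs, 38.5% had groups that did not overlap. The control libraries were close together, with a coefficient of variation of 2.30% against 15.3% under cadmium. The fitted log2 fold change of −0.33 (SE 0.18) did not pass, with an adjusted p of 0.206 in edgeR. With total-count scaling it was −0.54 (adjusted p 0.0608 in edgeR), and without cadmium replicate 1 it was −0.18.

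The 3 members of the chromosome X cluster gave no call. miR-55-3p had 19176, 12395 and 12104 CPM in the controls and 12629, 10509 and 12043 CPM in the cadmium libraries. Control replicate 1 stood above the other 5 libraries, which lay close together. The fitted log2 fold change was −0.31 (SE 0.21, adjusted p 0.332 in edgeR), and −0.070 without control replicate 1.

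miR-56-3p followed the same order of groups, at 15183, 9350 and 9451 CPM in the controls and 9557, 7838 and 8095 CPM in the cadmium libraries. Here too control replicate 1 was the highest library, and cadmium replicate 1 lay above the 2 lower controls. The fitted log2 fold change was −0.41 (SE 0.22, adjusted p 0.203 in edgeR), and −0.15 without control replicate 1.

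miR-54-3p had 6847, 6388 and 7830 CPM in the controls and 7380, 7777 and 5901 CPM in the cadmium libraries. The groups lay across each other, with means of 7022 ± 737 and 7019 ± 989 CPM (SD, n = 3). The fitted log2 fold change was −0.00043 (SE 0.18), and its sign changed with the setting.

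**Figure D2:**
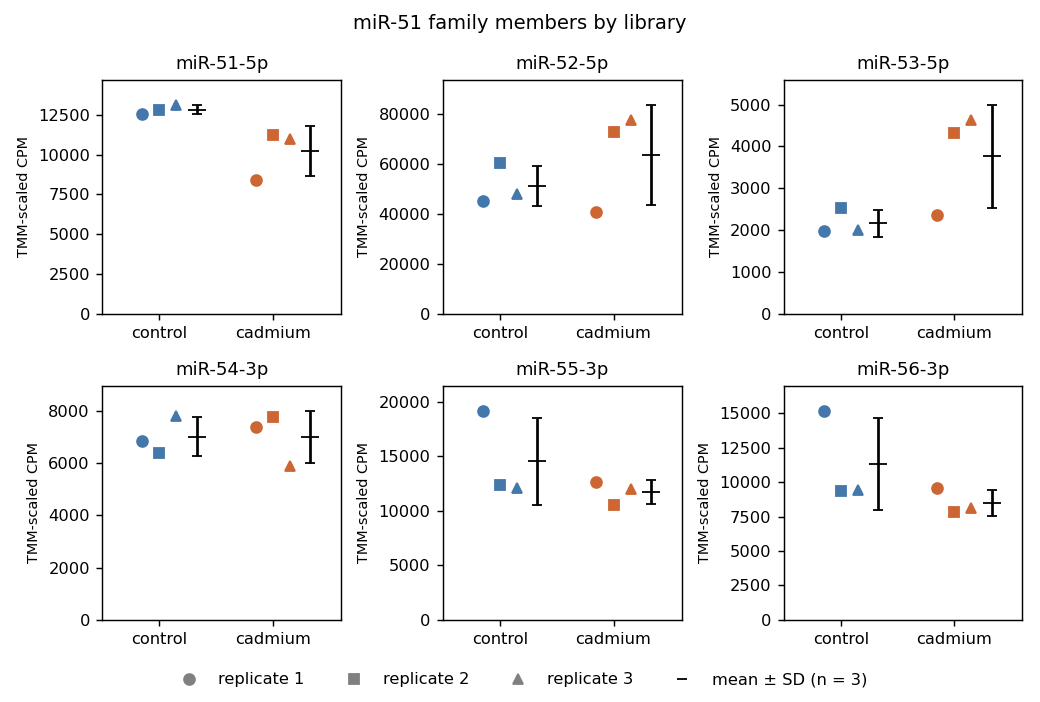
Each panel plots 1 member's TMM-scaled CPM (axis from 0) in 3 control and 3 cadmium libraries, with symbols for replicate numbers and black bars for mean ± SD (n = 3). Cadmium replicate 1 lies below cadmium replicates 2 and 3 for miR-51-5p, miR-52-5p and miR-53-5p. Control replicate 1 stands above the other libraries for miR-55-3p and miR-56-3p.

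**Figure D3:**
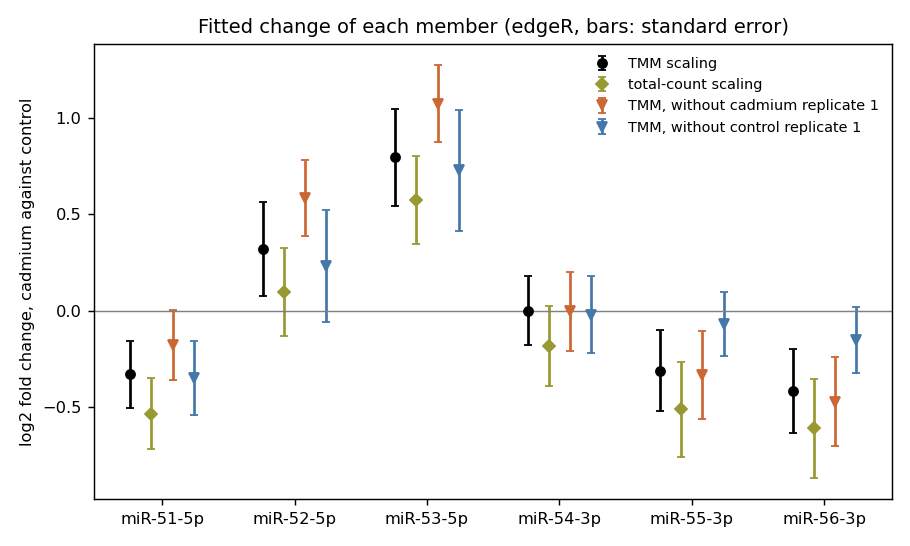
The fitted log2 fold change (cadmium against control, edgeR) of each member with its standard error, under TMM scaling, total-count scaling, and TMM scaling without cadmium replicate 1 or without control replicate 1. miR-53-5p is above 0 in all 4 fits (0.57 to 1.08), and miR-55-3p moves from −0.31 to −0.070 when control replicate 1 is left out.

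Ratios taken within a library do not depend on how libraries are scaled. For each of 15 pairs of members the log2 ratio was compared between groups by a two-sided exact permutation test, in which 3 against 3 libraries cannot give a p under 0.1. The groups did not overlap for 3 of the 15 pairs, those among miR-51-5p, miR-52-5p and miR-53-5p. Over all 21528 pairs of tested miRNAs the share was 40.4%, so the count for the family was not above background. Each of the 3 had the smallest exact p possible, 0.1, and 0.429 after adjustment over the 15 pairs.

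The closest relation was that of miR-52-5p and miR-53-5p. There were 22.9, 23.7 and 23.9 counts of miR-52-5p per count of miR-53-5p in the controls, and 17.3, 16.8 and 16.7 in the cadmium libraries. Put as a share of both, miR-53-5p made up 4.18%, 4.05% and 4.01% in the controls and 5.46%, 5.60% and 5.64% in the cadmium libraries. The 95% Wilson intervals of the controls all lay between 3.92% and 4.31%, and those of the cadmium libraries between 5.35% and 5.75%. Thus cadmium replicate 1, which had the lowest CPM of the cadmium libraries for both miRNAs, was close to the other cadmium libraries in their ratio.

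The log2 ratio of miR-52-5p to miR-53-5p fell by 0.47, from 4.56 ± 0.032 to 4.08 ± 0.026 (SD, n = 3). Counting error alone gives an SD of 0.012 to 0.024 for this ratio, depending on the library. Of the ratios of 207 other tested miRNAs to miR-52-5p, that of miR-53-5p had the smallest spread within groups, 0.029 on the log2 scale, against a median of 0.49. The sequences of these 2 members are nearly the same, and the sources used here do not state how reads that could match either were counted.

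A limma fit over all 207 ratios to miR-52-5p, chosen after the counts were seen, gave 0 of 5 members past an adjusted p of 0.05 and 0 of 5 with an unadjusted p under 0.05. Over all ratios 13.5% passed, and 22.7% had groups that did not overlap, against 2 of the 5 members (miR-51-5p and miR-53-5p). For miR-53-5p the adjusted p in limma was 0.495, with an SE of 0.38 that is drawn from the spread of all ratios and exceeds this pair's own spread. Without cadmium replicate 1, calls rose to 63 of 207 ratios (30.4%), and 3 of 5 member ratios were among them, all lower under cadmium: miR-51-5p (adjusted p 0.0411 in limma), miR-55-3p (0.0482) and miR-56-3p (0.032).

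The hairpins mir-51 and mir-53, although neighbours, gave mature miRNAs whose count ratio did not overlap between the groups, as for 40.4% of all pairs. There were 6.38, 5.05 and 6.60 counts of miR-51-5p per count of miR-53-5p in the controls, and 3.58, 2.60 and 2.38 in the cadmium libraries. The lowest control ratio was above the highest cadmium ratio. The log2 ratio went from 2.58 ± 0.21 to 1.49 ± 0.31 (SD, n = 3, exact permutation p 0.1, and 0.429 adjusted over the 15 pairs). The ratios of miR-51-5p to miR-52-5p and of miR-52-5p to miR-53-5p were each lower in all cadmium libraries. The separation of miR-51-5p to miR-53-5p follows from those and is not a further result.

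In the chromosome X cluster, miR-55-3p and miR-56-3p kept nearly the same balance. There were 1.26, 1.33 and 1.28 counts of miR-55-3p per count of miR-56-3p in the controls, and 1.32, 1.34 and 1.49 in the cadmium libraries. Cadmium replicate 3 was the highest, and the groups overlapped. miR-54-3p, from the same cluster, was looser: its ratio to miR-55-3p ran from 0.357 in control replicate 1 to 0.74 in cadmium replicate 2.

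**Figure D4:**
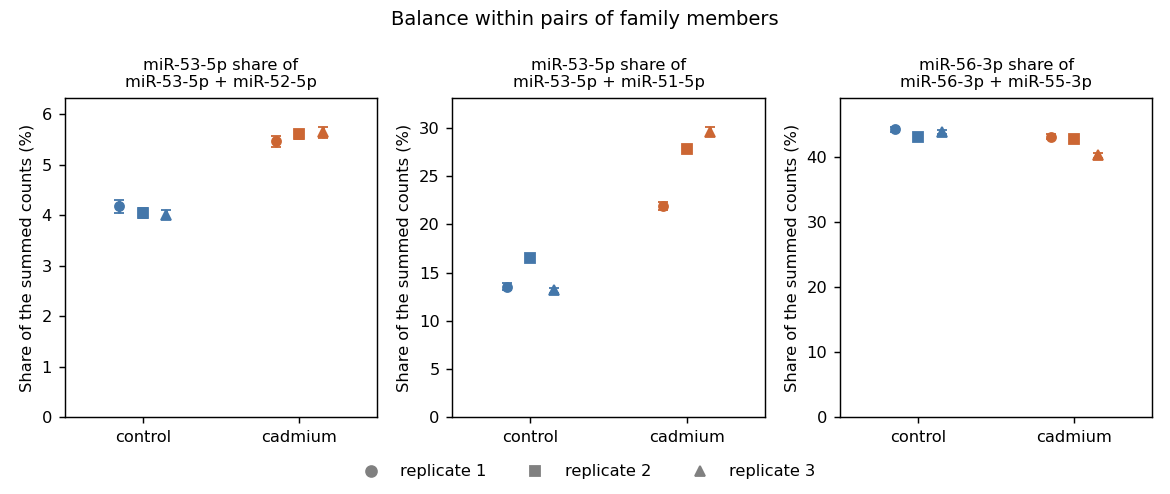
Each panel gives, per library, the share (%) that 1 member has of the summed counts of a pair, with 95% Wilson intervals for counting error. The share of miR-53-5p beside miR-52-5p is 4.01% to 4.18% in controls and 5.46% to 5.64% under cadmium, whereas the share of miR-56-3p beside miR-55-3p overlaps between groups.

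As shares of the whole family, 2 of 6 members had groups that did not overlap. The 38.5% found for the levels of all tested miRNAs is a different measure, and no background was computed for shares within a family. The shares in a library sum to a fixed total, so the members' values depend on each other. miR-51-5p went from 13.0 ± 1.07% to 9.81 ± 0.571%, and miR-53-5p from 2.19 ± 0.250% to 3.52 ± 0.538% (SD, n = 3). Each had a two-sided exact permutation p of 0.1, the smallest possible here, and 0.3 adjusted over the 6 members. miR-52-5p averaged 51.5 ± 6.66% in control and 59.6 ± 8.15% in cadmium libraries, and the groups overlapped. The chromosome X members together held 40.9%, 27.1% and 31.9% in the controls, and 36.5%, 22.9% and 21.9% in the cadmium libraries, so replicate 1 was the highest in each group.

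Nearly all reads of each hairpin came from the family arm. It supplied between 99.4% (mir-54) and 99.997% (mir-52) of the hairpin's counts over the 6 libraries. The other arms held few counts: miR-54-5p had 79 to 206 per library, miR-51-3p 10 to 50, miR-55-5p 8 to 33, miR-56-5p 2 to 14, miR-52-3p 2 to 10 and miR-53-3p 0 to 2. The 5p to 3p ratio could be tested for 3 of the hairpins (mir-51, mir-54 and mir-55). In limma 0 of these 3 passed an adjusted p of 0.05, where 3.17% of 63 hairpins did, and 0 of 3 had an unadjusted p under 0.05. The differences in log2 ratio were −0.092 (SE 0.46), −0.027 (SE 0.36) and 0.049 (SE 0.41). The rise of miR-53-5p could not be looked for in its other arm, which had 5 counts in all.

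Likeness of pattern was measured as the root mean square difference of log2(CPM + 1) over 6 libraries, each miRNA centred on its own mean. miR-55-3p and miR-56-3p were each other's closest of 207 tested miRNAs, at 0.0761. For miR-52-5p the closest was miR-34-3p (0.0977), with miR-53-5p in place 4 (0.237). For miR-53-5p the closest was miR-237-5p (0.147), with miR-52-5p in place 8. miR-51-5p was closest to miR-246-3p (0.134), and its nearest family member, miR-54-3p, came in place 33. For miR-54-3p the closest was miR-259-5p (0.133), and its nearest family member, miR-51-5p, came in place 46. The nearest miRNA outside the family was miR-248 for miR-55-3p (0.152) and miR-81-5p for miR-56-3p (0.156). miR-81-5p was low, at 6.25 ± 1.53 CPM in control and 4.84 ± 1.52 CPM in cadmium libraries (SD, n = 3). Its pattern therefore rests on few counts.

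The miRNAs of linked pathways comprised the let-7 family, lin-4-5p, miR-237-5p, miR-240-3p, miR-786-3p and lsy-6-3p, 14 names in all with both arms of miR-794 and miR-795. All 14 were tested, 2 rose and 0 fell in edgeR, where 21.6% of all tested miRNAs were called and 9.62% as higher. Fitted values were above 0 for 12 of the 14, against 105 of all 208 tested miRNAs. The median log2 fold change of the 14 was 0.46, against 0.0039 over all tested miRNAs and −0.16 for the miR-51 family. The 14 are not separate hairpins, since miR-794-3p and miR-795-3p are counted beside their 5p arms. These 3p arms were low, at 7.01 and 8.40 CPM in control libraries (means, n = 3). The 2 that rose were miR-237-5p, the second worm relative of miR-125, and miR-794-5p of the let-7 family. miR-237-5p went from 2667 ± 260 to 4734 ± 1176 CPM (SD, n = 3; log2 fold change 0.83, SE 0.21, adjusted p 0.0206 in edgeR), a fitted change close in size to that of miR-53-5p. lin-4-5p, the other miR-125 relative and a timer of larval development, was at 1941 ± 533 and 2175 ± 117 CPM (adjusted p 0.609 in edgeR). let-7-5p, which times the passage to the adult stage, was at 5616 ± 1106 and 8279 ± 2606 CPM (adjusted p 0.126 in edgeR).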

How the data were processed

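The deposited count files give whole-number counts per mature miRNA, 1 library per file, and the deposited CPM files give the authors' CPM, each count scaled to its library's total of listed miRNAs. Per the submitters' processing notes, cutadapt 3.4, HISAT2 2.2.1, Bowtie2 2.4.2 and the WBcel235 build were used. Which tool made these counts, the miRNA annotation and the treatment of reads matching several miRNAs are not given in the sources used here; this can move counts between similar members. A further 12 columns, counted over all the whole-series matrices, were not used, since their names match no sample title. A name can recur between matrices, so 12 is not a number of further samples.

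In R 4.3.3, filterByExpr of edgeR 4.0.16 kept 208 of 437 miRNAs, TMM factors were computed, and the quasi-likelihood F test compared the groups without covariates. Fold changes used a prior count of 0.125. Arm ratios, log2((5p + 0.5)/(3p + 0.5)), were tested in limma 3.58.1 where both arms averaged at least 10 counts, and ratios to miR-52-5p likewise with a mean-variance trend. DESeq2 1.42.0 and limma on the deposited CPM as log2(CPM + 1) or log2(CPM + 0.1) were alternatives. Hairpins were matched by name in Ensembl release 115. Procedures were tested on simulated counts. Named miRNAs were all members, the other arms of their hairpins, the nearest miRNA outside the family for each member, and the linked list. Members, lists and rules were chosen with earlier results of these data known.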

Additional observations from a re-analysis of the deposited data

How the results depend on the processing

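The number of members past the threshold, 1 as reported, was 0 with total-count scaling, upper-quartile scaling, limma on the deposited CPM as log2(CPM + 1) or log2(CPM + 0.1), a replicate block, and removal of the miR-35 family. It ran from 0 to 2 when single libraries were left out, the 2 (miR-52-5p and miR-53-5p) coming without cadmium replicate 1. It was 1 with DESeq2 size factors, the DESeq2 Wald test, no filter and the robust fit. For miR-53-5p the log2 fold change ran from 0.55 to 1.08 over its 16 alternatives and the adjusted p from 0.0019 to 0.184. The fitted value of miR-54-3p changed sign with DESeq2 size factors (0.025), the DESeq2 Wald test (0.013), no filter (0.062), upper-quartile scaling (0.031), and without the miR-35 family (0.0090). It ran from −0.078 to 0.11 over the leave-one-out fits, and the difference in its share of the family from −1.27 to 0.81 points. Of all 96 member values under alternatives, 77 stayed on the same side with the same sign. Of the others, 11 were weaker, all miR-53-5p, 7 changed sign, all miR-54-3p, and 1 was stronger, miR-52-5p without cadmium replicate 1. The difference in the family's share of counts was −0.92 points, ran from −1.59 to −0.33 with single libraries left out, was 0.48 with miR-1-3p and miR-58a-3p left out of the total, and −1.80 with the miR-35 family left out of it. The number of changed member ratios to miR-52-5p ran from 0 to 3 with single libraries left out, where all called ratios numbered 16 to 63 and the 3 came with the 63, and was 0 in each other alternative. Changed arm ratios numbered 0 throughout. The cause of these differences was not tested.

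Over all tested miRNAs, deviations from the group means correlated at −0.044, −0.30 and −0.32 between libraries of equal number. The members differed from this. In both groups replicate 1 was the lowest library for miR-51-5p, miR-52-5p and miR-53-5p, and the highest for miR-55-3p and miR-56-3p. For miR-54-3p it was neither in either group. Whether libraries of equal number were paired is therefore not settled by these correlations. With the replicate number as a block, 0 members passed and miR-53-5p had a log2 fold change of 0.75. The number of tested miRNAs called was 17 with the block against 45 without, and from 22 to 52 with single libraries left out. Depth limits the minor arms, which had 0 to 206 counts per library.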
